A study of Mus musculus with 4 samples.

Results

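The 35 genes described here mark microglia and macrophages, the myeloid phagocytes that share a culture dish with astrocytes unless they are removed. Members were taken by gene name from the platform's probe annotation, where all 35 were found, on 55 probe sets out of 22690; the whole array covered 12393 genes through probe sets that name only 1. Signals were measured in primary astrocyte cultures from the olfactory bulb (hereafter the bulb), the hippocampus, the subventricular zone (a germinal layer beside the lateral ventricle) and the ventral mesencephalon (the floor of the midbrain). All 4 cultures came from CD-1 mice, an outbred stock, at postnatal day 3, with no treatment or altered allele named in the labels, and each was read on 1 Affymetrix array. Before replating, the adherent cells were shaken to enrich astroglia, a step that detaches loosely bound cells, and monolayers were then kept in medium with fetal bovine serum. The design text names 4 littermate pups and then a pool of 3 pups, so the number of animals behind each culture is not settled. A region has a single array, so differences below have no replicate check and carry no p-value.

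Microglia arise from yolk sac precursors and settle in the brain before birth. They depend on signalling through the receptor Csf1r, on the transcription factor PU.1 and on adaptor proteins with an ITAM, a short tyrosine motif that recruits the kinase Syk. Macrophages of the meninges and vessels share most of this programme, so the genes listed here mark phagocytes in general more than microglia alone.

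A signal is the deposited intensity on a linear scale. The median of all signals, 122.1, served as a floor, since the table holds no detection calls; a value at or below it is called not above the floor, and a fold against such a value is a lower bound, written "at least". A gene was called when its signals, raised to the floor where lower, were 2-fold or more apart. Between 11144 and 11835 probe sets per array lay above the floor, and the 2% trimmed means were 400.1 to 400.2. As a yardstick for measurement error, the bulb minus hippocampus difference of 2158 genes scattered between 2 probe sets of a gene with a median-based SD of 0.24 log2 per difference; this does not cover the spread between cultures. Astrocyte marker genes were read in each culture. Gfap, the astrocyte filament, had signals of 3800.2, 10027, 3112 and 1007 in the bulb, hippocampus, subventricular zone and ventral mesencephalon. Of 14 astrocyte genes 13, 13, 11 and 11 were above the floor in the same order, against 6929, 7317, 6905 and 6879 of all 12393 genes. The glutamate transporter Slc1a2 was not above it on any array.

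The phagocyte genes were high in the bulb and hippocampus cultures (for these genes, the high cultures) and mostly at or below the floor in the other pair (the low cultures). In deposited signal, all 35 were higher on both the bulb and the hippocampus array than on either of the remaining arrays. Above the floor lay 32 of 35 in the bulb and 34 in the hippocampus, against 5 for the subventricular zone and 4 for the ventral mesencephalon. In 28 of 35 genes the bulb and the hippocampus each read 2-fold or more above both other regions, while 1.64% of all genes did so (7987 genes with a value above the floor). Taken singly, the bulb exceeded both by 2-fold for 28 genes (3.96% of all genes) and the hippocampus for 32 (4.51%). None was 2-fold lower than both, in the bulb (3.74% of all genes) or the hippocampus (2.47%). With the floor, that lower call was out of reach for most members, whose signals in the low cultures lay at or below it. Summed over the 35 genes the signal was 59286 in the bulb and 70442 in the hippocampus, against 1832 for the subventricular zone and 2019 for the ventral mesencephalon. Lyz1 and Lyz2 gave the largest terms in the bulb (12646 and 11249) and in the hippocampus (10172 and 9016). The readings of these gene copies cannot be separated with certainty, so the sums may count the same RNA repeatedly. In these bulk RNA samples fewer phagocytes and less RNA per phagocyte cannot be told apart.

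**Figure D1:**
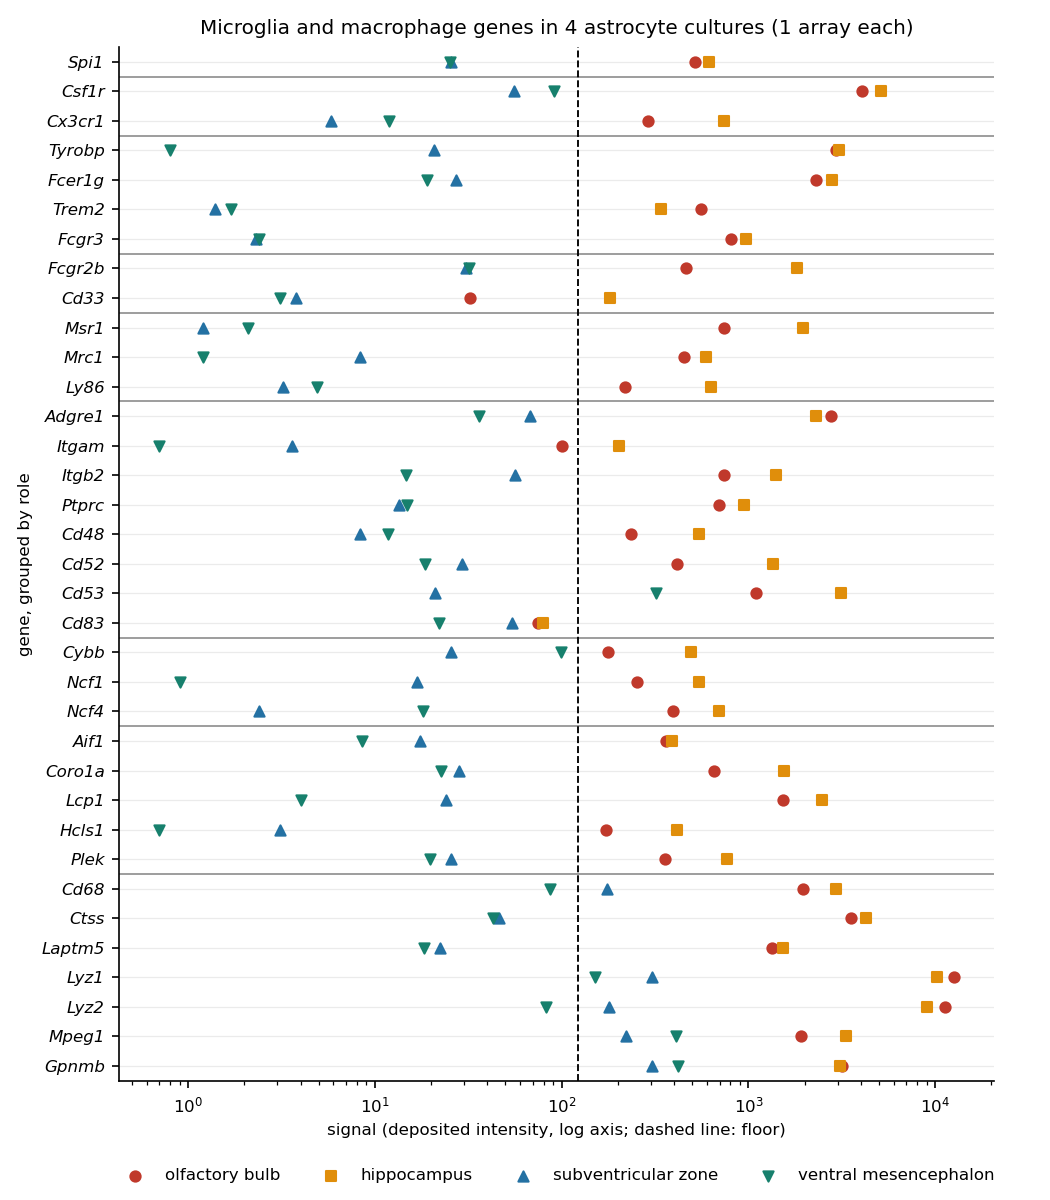
Deposited signal (log axis) of the 35 genes, 1 row per gene grouped by role, 1 symbol per region and array; the dashed line is the floor of 122.1. The bulb and hippocampus symbols lie right of the subventricular zone and ventral mesencephalon symbols in every row, and only Cd83 has no symbol above the floor.

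The lineage transcription factor behaved like the list. Spi1, which encodes PU.1, had signals of 515.8 in the bulb, 613.8 in the hippocampus, 25.7 in the subventricular zone culture and 25.3 in the ventral mesencephalon. It was thus at least 4.22-fold higher in the bulb and at least 5.03-fold higher in the hippocampus than in both other cultures, and its 2 high values differed by 1.19-fold.

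Because PU.1 binds purine-rich sites around GAGGAA, the promoters of the genes were searched for these letters. RefSeq promoters (GRCm38.p6, 250 bases before to 50 after a start) were on hand for 26 of the 35. GAGGAA on either strand was found in 13 of these 26 genes (50%), against 31.3% of 27025 genes with a promoter of the same length. The longer GAGGAAGT, which contains it, was found in 2 (7.69%, against 3.69% of all genes). The Ets-IRF composite element, bound by PU.1 together with an interferon regulatory factor, was found in 3 (11.5%, against 3.16%), and its matches can overlap those of GAGGAA. A match is only a run of letters, and its use was not measured. In the 100 bases before the start, 8 of the 26 genes held GAGGAA, and the share of all genes in that window was not counted. Those 8 stretches are shown, with the match in capitals (TTCCTC where it lies on the opposite strand):
Aif1: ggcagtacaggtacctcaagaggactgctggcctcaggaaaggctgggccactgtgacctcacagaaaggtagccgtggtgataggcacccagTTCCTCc
Itgam: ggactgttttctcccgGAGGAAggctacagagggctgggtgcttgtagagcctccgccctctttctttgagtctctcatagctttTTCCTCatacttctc
Cd53: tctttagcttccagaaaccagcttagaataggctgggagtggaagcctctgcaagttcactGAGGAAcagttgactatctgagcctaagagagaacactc
Trem2: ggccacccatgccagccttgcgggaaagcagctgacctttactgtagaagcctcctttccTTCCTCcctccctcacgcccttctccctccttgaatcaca
Laptm5: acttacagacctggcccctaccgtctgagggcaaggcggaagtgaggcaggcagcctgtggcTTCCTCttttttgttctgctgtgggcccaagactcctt
Fcgr3: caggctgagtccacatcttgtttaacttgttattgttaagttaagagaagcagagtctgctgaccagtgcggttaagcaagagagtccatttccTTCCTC
Mrc1: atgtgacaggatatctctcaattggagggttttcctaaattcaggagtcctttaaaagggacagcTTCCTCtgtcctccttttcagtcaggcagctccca
Plek: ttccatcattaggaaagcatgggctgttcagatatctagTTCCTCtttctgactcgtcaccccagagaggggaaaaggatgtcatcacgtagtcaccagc

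The stretches lie at chr17:35176053-35176152 on the minus strand (Aif1), chr7:128062540-128062639 on the plus strand (Itgam), chr3:106790150-106790249 on the minus strand (Cd53) and chr17:48346301-48346400 on the plus strand (Trem2). The others lie at chr4:130913216-130913315, plus (Laptm5), chr1:171059404-171059503, minus (Fcgr3), chr2:14229314-14229413, plus (Mrc1), and chr11:17008719-17008818, minus (Plek). The match begins 39, 40, 38 and 35 bases before the annotated start in Cd53, Trem2, Laptm5 and Mrc1, 7, 6 and 61 bases before it in Aif1, Fcgr3 and Plek, and 84 and 15 bases before it in Itgam, which has 2 matches. Genes with the match did not all move alike between the 2 high cultures. Of these 8, Cd53 and Plek were called lower in the bulb than in the hippocampus, as were 12 of all 35 members and 8.69% of all genes. Trem2 was 1.63-fold higher in the bulb, by its only probe set above the floor. A link between the match and these differences was not tested.

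Among the receptors for growth factors and chemokines, the difference between the 2 high cultures was unequal. Csf1r, on which the survival of microglia depends, was at least 33.4-fold higher in the bulb and at least 41.8-fold higher in the hippocampus than in both other cultures. Its 3 probe sets gave bulb minus hippocampus differences of -0.43 to -0.32 log2. The fractalkine receptor Cx3cr1, by which microglia sense neurons, had signals of 288.2 in the bulb, 738.7 in the hippocampus, 5.8 in the subventricular zone culture and 11.9 in the ventral mesencephalon. It was 2.56-fold lower in the bulb than in the hippocampus, and its second, dimmer probe set did not pass the floor on any array (51.0, 116.4, 4.1 and 13.9).

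Of the ligands of these receptors, Csf1 and Cx3cl1 were highest in the subventricular zone. Csf1, the growth factor bound by Csf1r, had signals of 1787 in the bulb and 1601 in the hippocampus, against 6356 for the subventricular zone and 4005 for the ventral mesencephalon. Both cultures rich in the receptor transcript were thus over 2-fold below both cultures in which it was not above the floor (-1.16 log2 for the bulb and -1.32 for the hippocampus, each minus the ventral mesencephalon). All 4 Csf1 probe sets read lower in the bulb and the hippocampus than in both of those cultures. Il34, the other ligand of Csf1r, was above the floor in the bulb alone, at 256.4, with 93.3 in the hippocampus, 114.6 in the subventricular zone culture and 94.9 in the ventral mesencephalon. Cx3cl1, the ligand of Cx3cr1, read 542.4, 167.6, 1042.4 and 677.8 in the same regions. It was therefore 3.24-fold higher in the bulb than in the hippocampus, opposite in direction to its receptor. A dimmer Cx3cl1 probe set read 143.8 in the bulb and 53.4 in the hippocampus, where the floor limits the difference to 0.24 log2. Of 15 genes in the list of Csf1 receptor ligands, related receptors and myeloid transcription factors, 2 were called higher (5.23% of all genes were) and 2 lower (8.69%) in the bulb than in the hippocampus; the lower ones were Irf8, a transcription factor of microglia and macrophages (167.2 and 535.2), and Csf2ra, a receptor chain for the cytokine GM-CSF (303.5 and 608.1). A dimmer Irf8 probe set was 1.70-fold lower in the bulb (132.4) than in the hippocampus (225.1), short of a call. Csf1 was named after its values were seen.

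**Figure D2:**
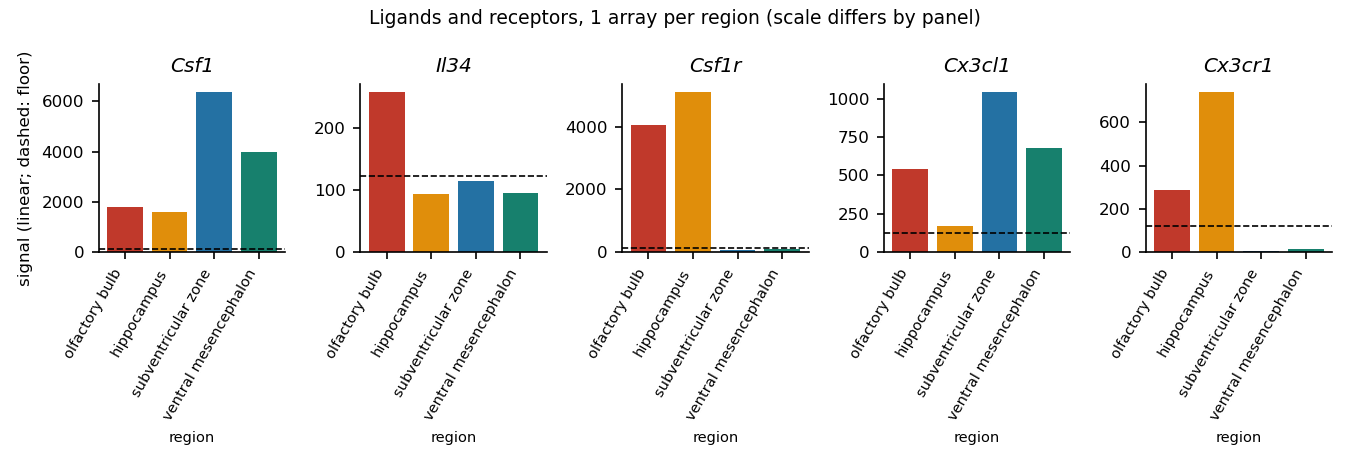
Deposited signal (linear axis from 0, scale differing by panel) of 3 ligands and their 2 receptors, 1 bar per region and array; the dashed line is the floor. The Csf1r and Cx3cr1 bars rise above the floor for the bulb and the hippocampus only, while Csf1 and Cx3cl1 are tallest in the subventricular zone.

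The ITAM adaptors and the Fc receptor Fcgr3 differed little between the 2 high cultures, and Trem2 was higher in the bulb. Tyrobp, the adaptor DAP12, had signals of 2940.2 in the bulb, 3061 in the hippocampus, 20.7 in the subventricular zone culture and 0.8 in the ventral mesencephalon. Fcer1g, the Fc receptor gamma chain, read 2308, 2798, 27.2 and 19.1, and the activating Fc receptor Fcgr3 read 810.0, 974.1, 2.3 and 2.4. These 3 genes were at least 6.63-fold higher in the bulb than in both low cultures, and the bulb minus hippocampus differences were between -0.28 and -0.06 log2. Trem2, a lipid-sensing receptor that signals through Tyrobp, had signals of 558.6, 342.2, 1.4 and 1.7 and a difference of 0.71 log2. That value rests on 1 _s_at probe set, the other reading 25.1, 15.4, 15.6 and 19.6, and was 0.35 with the mean of both.

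Among kinases and scaffolds downstream of the ITAM, the differences between the high cultures were wider. Of 15 such genes 3 were called lower in the bulb than in the hippocampus (8.69% of all genes were) and none higher (5.23%): Blnk, Lcp2 and Syk, at -1.32, -1.14 and -1.07 log2. Syk, the kinase recruited by the motif, had signals of 181.3 in the bulb, 381.2 in the hippocampus, 76.4 in the subventricular zone culture and 73.0 in the ventral mesencephalon. The small GTPase Rac2, at 552.5 in the bulb against 1105 in the hippocampus, fell just short of 2-fold. The median over the 14 genes above the floor was -0.80, against 0.00 over all genes. A difference between this list and the adaptors was not tested.

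The inhibitory receptors were lower in the bulb. Fcgr2b, the inhibitory Fc receptor, had signals of 462.0 in the bulb, 1829 in the hippocampus, 30.8 in the subventricular zone culture and 31.7 in the ventral mesencephalon. It was 3.96-fold lower in the bulb than in the hippocampus, and its 4 probe sets gave -1.99 to -1.53 log2. Fcgr2b is closely related to Fcgr3, and the probe set used has a suffix (_s_at) that marks probes shared between transcripts. Cd33, a sialic acid receptor, was above the floor in the hippocampus alone (181.1, against 32.3 in the bulb), so the bulb was at least 1.48-fold lower.

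Scavenger and pattern receptors divided. Msr1, a scavenger receptor for modified lipoproteins, read 737.9 in the bulb, 1957 in the hippocampus, 1.2 in the subventricular zone culture and 2.1 in the ventral mesencephalon, a 2.65-fold lower bulb. Its 4 probe sets all lay on this side, from -1.88 to -0.17 log2, the last from the dimmest of them, which the floor compresses. Ly86, which pairs with the Toll-like receptor relative Cd180, was 2.89-fold lower in the bulb (217.3) than in the hippocampus (627.7). The mannose receptor Mrc1 was closer, with 450.0 and 592.5 in these cultures and no more than 8.3 in the others.

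A further 8 members are leukocyte surface proteins, and of these only Adgre1 read higher in the bulb than in the hippocampus. Adgre1, the F4/80 antigen of mouse macrophages, had signals of 2782 in the bulb, 2312 in the hippocampus, 67.7 in the subventricular zone culture and 35.9 in the ventral mesencephalon. It was 1.20-fold higher in the bulb. The lymphocyte and myeloid glycoprotein Cd52 was 3.28-fold lower in the bulb (413.9, against 1359 in the hippocampus) and Cd48, an adhesion ligand, 2.29-fold lower (236.2 against 540.6). The integrin chain Itgb2 read 738.5 and 1396, and its partner Itgam 100.9 and 203.2, of which Itgb2 alone was above the floor in the bulb. Ptprc, the pan-leukocyte phosphatase CD45, read 693.5 in the bulb, 943.1 in the hippocampus, 13.5 in the subventricular zone culture and 14.9 in the ventral mesencephalon. Cd83 did not pass the floor on any array (74.9, 79.5, 54.3 and 22.0).

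Cd53 was the one member called higher in the ventral mesencephalon than in the subventricular zone. This leukocyte tetraspanin read 1095 in the bulb, 3113 in the hippocampus, 20.9 in the subventricular zone culture and 320.1 in the ventral mesencephalon. It was 2.84-fold lower in the bulb than in the hippocampus, and at least 2.62-fold lower in the subventricular zone than in the ventral mesencephalon. Of all genes 4.97% were called in that last direction and 5.45% in the other, which among the members holds Lyz1 alone. Cd53 has a single probe set, so this value has no second reading.

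Of 6 genes of the phagocyte NADPH oxidase, the enzyme that makes superoxide, 2 were called lower in the bulb than in the hippocampus (8.69% of all genes were) and none higher (5.23%). Cybb, its catalytic chain, had signals of 175.9 in the bulb, 492.6 in the hippocampus, 25.6 in the subventricular zone culture and 99.3 in the ventral mesencephalon. The cytosolic subunits read 254.2, 544.1, 16.7 and 0.9 (Ncf1) and 393.6, 698.5, 2.4 and 18.0 (Ncf4). Cybb and Ncf1 were 2.80-fold and 2.14-fold lower in the bulb than in the hippocampus and Ncf4, not called, 1.77-fold. Cyba, the membrane partner of Cybb that many cell types make, was above the floor everywhere, at 2492 and 2498 in these cultures and 1452 and 1334 in the low cultures.

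Of 5 genes of the haematopoietic cytoskeleton, 3 were called lower in the bulb than in the hippocampus (8.69% of all genes were). Coro1a, an actin regulator of leukocytes, read 653.5 in the bulb, 1558 in the hippocampus, 28.2 in the subventricular zone culture and 22.5 in the ventral mesencephalon, a 2.38-fold lower bulb. Hcls1, a cortactin relative, was 2.40-fold lower (173.7 and 416.6) and Plek, the protein kinase C substrate pleckstrin, 2.15-fold (358.1 and 769.4). The actin bundler Lcp1 was 1.61-fold lower, with both its probe sets at -0.70 to -0.68 log2. Aif1, the calcium-binding protein stained as Iba1, was almost equal at 360.9 and 389.7, with 17.4 and 8.5 in the low cultures.

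Lysosomal and lytic proteins lay on both sides of equality in the high cultures. The 7 had a median bulb minus hippocampus difference of -0.19 log2, and none was called in either direction (8.69% of all genes were called lower and 5.23% higher). Lyz2, the lysozyme of macrophages, was 1.25-fold higher in the bulb (11249, against 9016 in the hippocampus) and Gpnmb, a glycoprotein of loaded lysosomes, 1.03-fold (3185 and 3087). Ctss, a phagocyte cathepsin, was 1.19-fold lower there (3548 and 4236), the sialomucin Cd68 1.51-fold (1964 and 2960) and the pore-forming Mpeg1 1.74-fold (1920 and 3345). Laptm5, a lysosomal membrane protein, read 1338 and 1525 by its brightest probe set, and its 3 probe sets fell on both sides of equality (-0.19 to 0.18).

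The 5 members above the floor in the subventricular zone, and the 4 in the ventral mesencephalon, were lysosomal but for Cd53. Gpnmb read 303.0 in the subventricular zone culture and 419.8 in the ventral mesencephalon, and Mpeg1 221.4 and 411.7. Cd68 (174.7) and Lyz2 (179.0) were above the floor in the subventricular zone only. These traces stood beside Csf1r, Spi1, Tyrobp, Ptprc and Itgam, none of which was above the floor in either culture.

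Lyz1 and Lyz2 are neighbouring copies of 1 gene, and their readings cannot be separated with certainty. The brightest Lyz1 probe set, with the suffix _x_at that marks probes able to bind related transcripts, read 12646 in the bulb, 10172 in the hippocampus, 302.6 in the subventricular zone culture and 150.4 in the ventral mesencephalon. A second _x_at probe set followed it, with 11674, 9713, 82.7 and 39.4. The Lyz1 probe set without that suffix read 19.9, 30.2, 2.7 and 13.5, above the floor nowhere. Compared without gaps, the 300-base promoters of the copies match at 201 positions, and the 100 bases before the start at 92. These 100 bases lie outside the transcript that the probes read. They are shown here (chr10:117292869-117292968 for Lyz1 and chr10:117282273-117282372 for Lyz2, both on the minus strand):
Lyz1: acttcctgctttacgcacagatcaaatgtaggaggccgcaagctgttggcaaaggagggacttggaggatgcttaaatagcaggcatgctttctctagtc
Lyz2: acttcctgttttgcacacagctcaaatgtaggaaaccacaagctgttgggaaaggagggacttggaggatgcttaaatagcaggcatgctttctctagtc

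Set gene by gene, the bulb was below the hippocampus for 29 of the 35 members and above it for 5, with Cd83 at the floor in both. Called 2-fold or more lower were 12 members, and 8.69% of all genes were; called higher were none, against 5.23% of all genes. The 12 were Fcgr2b, Cd52, Ly86, Cd53, Cybb, Msr1, Cx3cr1, Hcls1, Coro1a, Cd48, Plek and Ncf1. The median difference over the 34 members above the floor was -0.64 log2, against 0.00 over all genes. The differences varied among the members: 14 of the 32 above the floor on both arrays differed by less than 1.5-fold. The median-based SD of the 34 differences was 0.74, against 0.51 over all genes and the 0.24 between probe sets of a gene. That 0.24 came only from probe sets above the floor on both arrays, so it is not a like measure. For 9 members several probe sets lay above the floor, and in 8 of these 9 all were on the same side, Laptm5 being the exception.

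**Figure D3:**
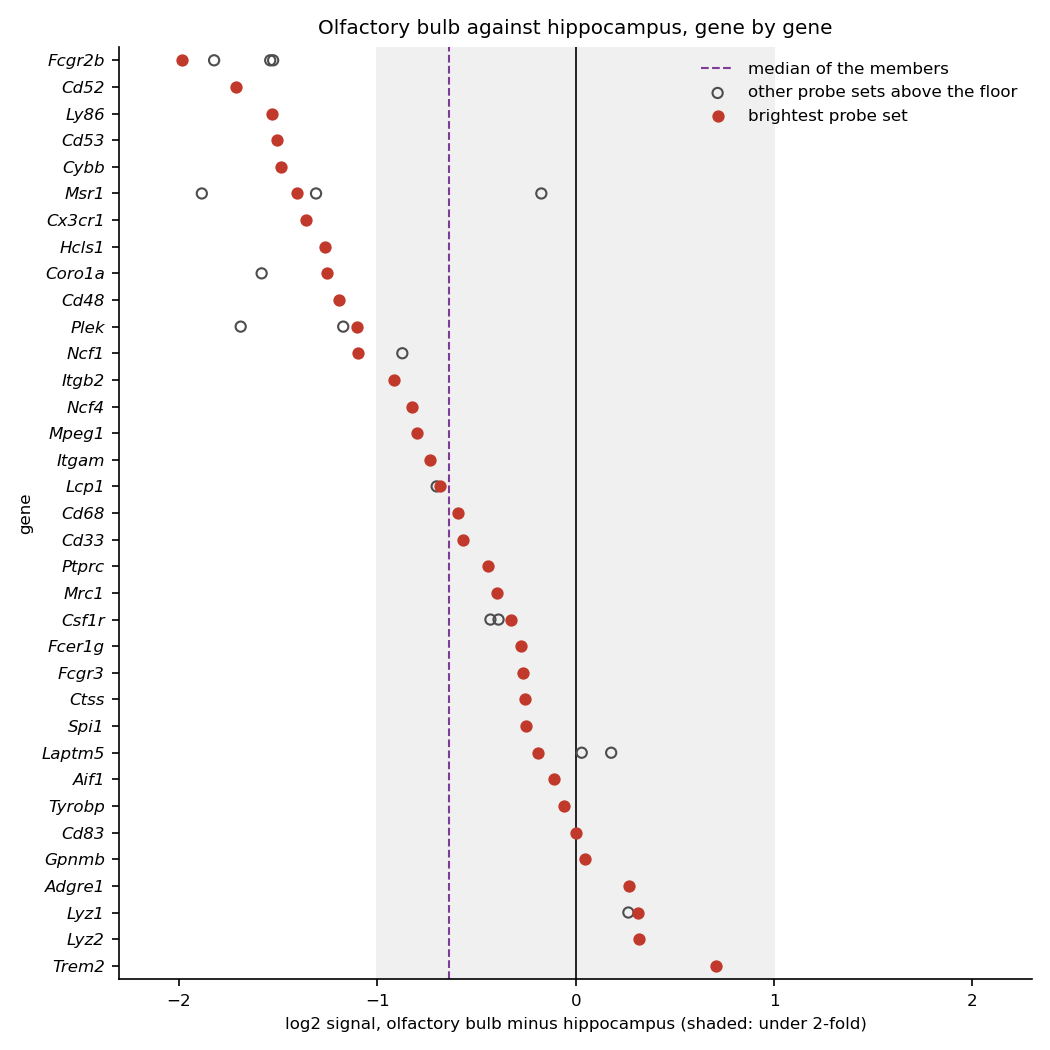
Bulb minus hippocampus difference (log2, after the floor) of the 35 genes in rank order, with filled points for the brightest probe set, open points for other probe sets above the floor, a dashed line at the members' median of -0.64 and shading under 2-fold. The 12 called genes from Fcgr2b to Ncf1 lie left of the shading and no gene lies right of it.

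Signal strength moved with these differences. The 17 brighter members, by mean log2 signal of the 2 arrays, had a median difference of -0.32 with 4 called lower in the bulb, and the 17 dimmer ones -0.83 with 8 called. The correlation of the difference with the mean log2 signal was 0.42 over the 34 members and 0.12 over the 6589 genes above the floor on both arrays; the points share both arrays. Under quantile normalization, which removes a bend between arrays, 31 members were lower in the bulb and 3 higher, Gpnmb turned to -0.11 and Lyz1 to -0.01, and the difference of Lyz2 shrank to 0.04, while Trem2 stayed at 0.81 and Adgre1 at 0.19. The part of signal strength in the remaining differences was not tested.

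**Figure D4:**
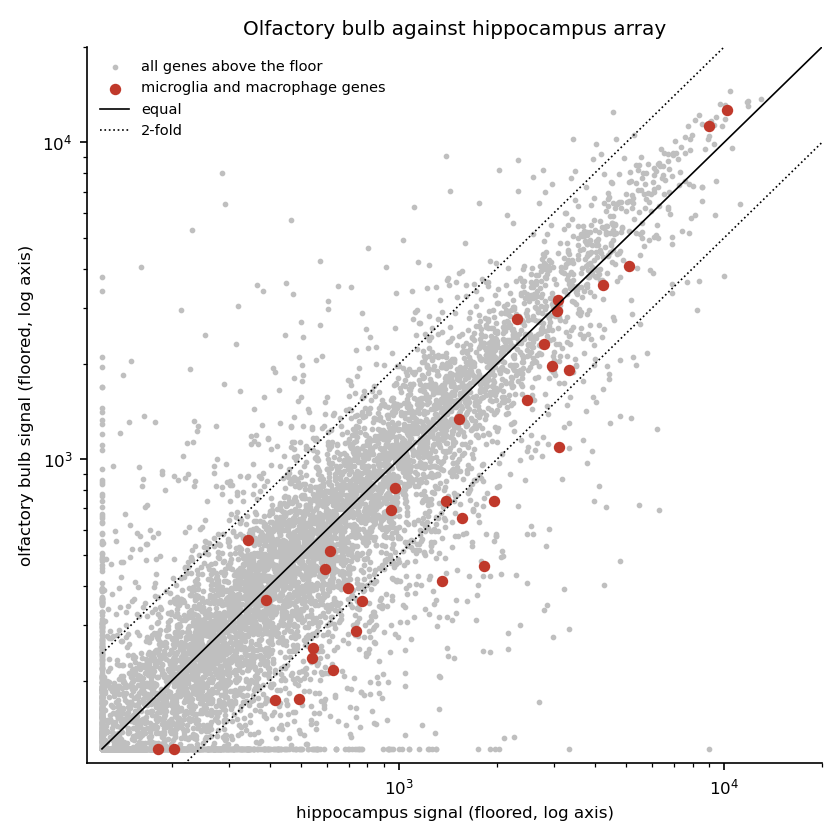
Signal on the bulb array against the hippocampus array (both floored, log axes) for all 7987 genes above the floor in grey and the members in red, with lines for equality and 2-fold. Most members lie under the line of equality, and the 2 brightest, Lyz1 and Lyz2, lie above it.

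Markers of other cells also moved between the 2 high cultures. The signal of 14 astrocyte genes summed to 25725 in the bulb, 38043 in the hippocampus, 25598 in the subventricular zone culture and 15411 in the ventral mesencephalon. The list went both ways, with 6 genes called lower in the bulb than in the hippocampus (8.69% of all genes were) and 2 higher (5.23%). The lower ones were Gfap, Aqp4, Sox9, Ndrg2, Slc1a3 (706.0 against 4328) and Aldh1l1 (310.8 against 1727). The higher ones were the gap junction protein Gjb6 (1313 against 147.7) and the bicarbonate transporter Slc4a4 (1076 against 405.5). For 14 fibroblast and meningeal genes the sums were 51346, 20867, 6459 and 46782, with Dpt not above the floor on any array. Of the 14, 8 were called higher in the bulb than in the hippocampus (5.23% of all genes were), among them the collagen Col3a1 (10549 against 5271). The 2 called lower (8.69% of all genes were) were the proteoglycan Lum (127.5 against 369.9) and the growth factor receptor Pdgfra (156.4 against 431.6). In the ventral mesencephalon the largest terms of that sum were the collagens Col3a1 (9394) and Col1a2 (9273), so a few bright genes weigh most in it. Such a sum does not measure the share of a cell type. None of 13 lymphocyte genes was above the floor on any array (sums 74.4, 93.4, 114.9 and 78.4), and Cd3e read at most 12.7. Of 13 granulocyte and mast cell genes 2 were above it on any array. The part of these other cell types in the phagocyte differences was not tested.

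Genes outside the list that shared its pattern included other genes known from phagocytes. Ranked by the gap between the lower of the 2 high cultures and the higher of the other pair, 7 of the first 10 genes and 26 of the first 100 were members. The members were chosen with earlier results of these data known, so this overlap is no separate evidence about the list. The 10 non-members with the widest gap were the complement chains C1qa, C1qc and C1qb, the macrophage membrane protein Ms4a7, the lectin receptor Clec4d, the microglial Fc receptor-like gene Fcrls, the homeodomain protein Hopx, the protease Adam8, the leukotriene pathway protein Alox5ap and the water channel Aqp1. C1qa read 3325 in the bulb, 3527 in the hippocampus and 1.5 in each other culture. By their brightest probe sets, all 3 C1q chains differed by less than 1.5-fold between the 2 high cultures, as the ITAM adaptors did. The dimmer C1qb probe sets were 1.42-fold and 1.66-fold lower in the bulb than in the hippocampus. Ms4a7 was 1.52-fold higher in the bulb (2787 and 1839) and Clec4d 2.07-fold lower (1389 and 2869.7). Hopx was above the floor on all 4 arrays, at 2300.2, 2489, 271.8 and 283.2.

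Of 13 genes listed for resident microglia, 9 were above the floor on at least 1 array. In the bulb, hippocampus, subventricular zone and ventral mesencephalon 8, 8, 4 and 3 were above it. Of all 12393 genes 6929, 7317, 6905 and 6879 were, in the same order. Sparc, a gene of this list, read 14562, 10411, 13865 and 13532, so the list does not read microglia alone. The 4 genes P2ry12, Gpr34, Slc2a5 and Csf3r were not above the floor on any array. P2ry12, the purine receptor of resting microglia, read 51.0 in the bulb, 96.7 in the hippocampus, 11.9 in the subventricular zone culture and 0.6 in the ventral mesencephalon. Tmem119, another marker of brain microglia, read 137.7, 146.7, 11.8 and 99.5, little above the floor in the first 2 cultures. The transcription factor Sall1 was above it in the subventricular zone alone (164.3, with 13.3, 68.1 and 92.0 in the bulb, hippocampus and ventral mesencephalon). Fcrls, by contrast, read 1165 and 1301 in the bulb and hippocampus, against 14.4 and 13.4. Gpr84, a fatty acid receptor induced in activated microglia, was 4.82-fold lower in the bulb (153.5) than in the hippocampus (739.3).

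Border and tissue macrophage genes differed widely between the high cultures, in both directions. Of 16 on the array, 5 were called lower (8.69% of all genes were) and 2 higher (5.23%) in the bulb than in the hippocampus. Marco, a scavenger receptor of macrophages, read 282.7 in the bulb, 2169.7 in the hippocampus, 50.4 in the subventricular zone culture and 2.7 in the ventral mesencephalon, and was 7.67-fold lower in the bulb. The fatty acid transporter Cd36 (89.1 against 571.8) and the coagulation factor F13a1 (12.7 against 324.1) were at least 4.68-fold and at least 2.65-fold lower there. The scavenger receptor Stab1 and the chemokine Pf4 completed the 5, at -1.52 and -1.24 log2. On the other side, the folate receptor Folr2 read 326.3 against 135.2. Cbr2, a carbonyl reductase, read 946.3 against 159.2 but was highest in the ventral mesencephalon (1535), where most phagocyte genes were not above the floor. Cd163, Clec10a, Lyve1, Siglec1 and Ccr2 were not above the floor on any array.

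Fc and innate receptors leaned toward the hippocampus. Of 17 such genes, 5 were called lower in the bulb than in the hippocampus (8.69% of all genes were) and none higher (5.23%), with a median of -0.78 log2 over the 12 above the floor. Clec4e, a receptor for mycobacterial glycolipid and dead cells, read 136.8 in the bulb, 1289 in the hippocampus, 16.6 in the subventricular zone culture and 19.9 in the ventral mesencephalon. It was 9.42-fold lower in the bulb, and its dimmer probe set read 27.5 and 288.6 in the same pair. The endotoxin co-receptor Cd14 read 1794 and 4436, and was above the floor in the other cultures as well (661.8 and 368.5). Fcgr1, the high-affinity Fc receptor, and the anaphylatoxin receptor C5ar1 were 2.35-fold and 2.15-fold lower in the bulb. Clec4d, given above, was the fifth.

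**Figure D5:**
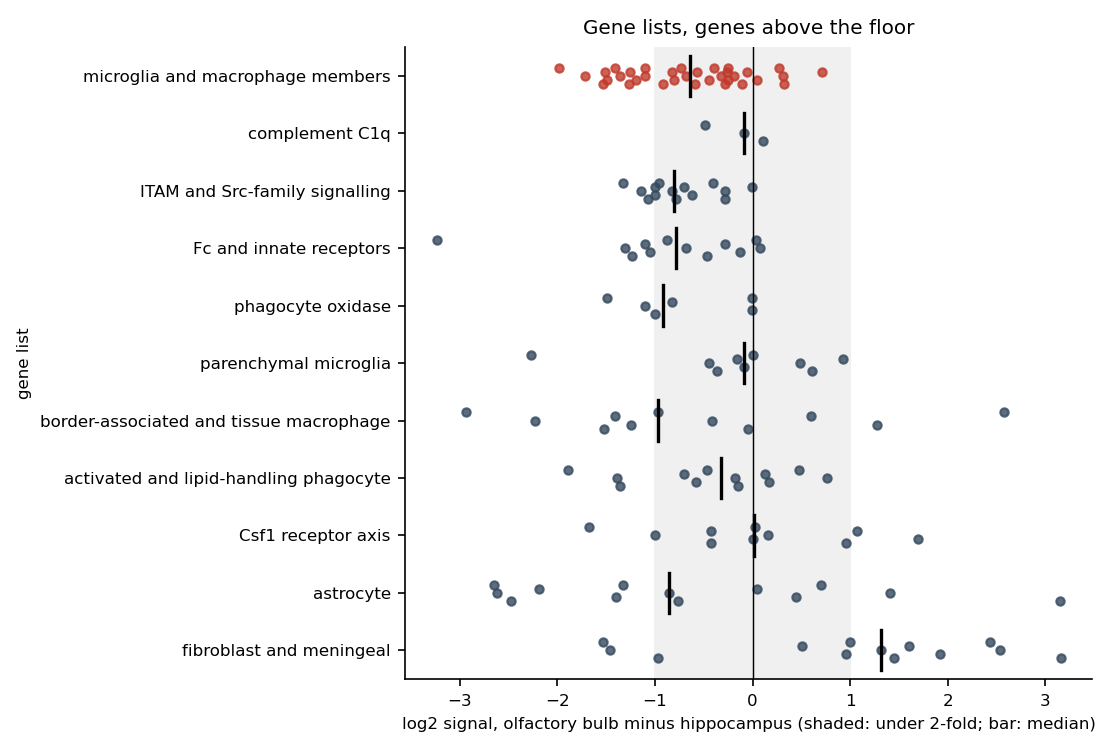
Bulb minus hippocampus difference (log2) of the members and of 10 other gene lists, 1 point per gene above the floor, with a bar at each list's median and shading under 2-fold. The members' median is -0.64, the C1q chains lie within the shading, border and tissue macrophage genes reach from -2.94 to 2.57, and the fibroblast and meningeal median is 1.31.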

How the data were processed

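Values in the deposited table are linear signal intensities, 1 per probe set on each of 4 arrays. Per the submitters' processing notes the authors used GCOS 1.4; its algorithm, scaling target and settings: not given in the sources used here. Deposited intensities were used as they stood. The equal trimmed means are those of arrays scaled to a common value, so a culture rich in RNA of other cells moves the signal of every gene.

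Gene names came from the platform annotation: 20380 probe sets had 1 gene symbol (20351 of them found in the RefSeq gene table), 691 had several, 1555 had none listed and 64 were controls. For a gene with several probe sets, the one with the highest mean floored log2 signal stood for it. Calls need a log2 difference of at least 1. With 1 array per region no test was possible, and the number of arrays limits the precision. Calling was tested on simulated data (Python 3.11.15, pandas 2.3.3, numpy 2.4.6).

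The members and lists were chosen with earlier results of these data known. All members are named, with up to 4 genes of each other list that differed most between the bulb and the hippocampus, a few fixed markers and the 10 non-members with the widest gap. Genes named beyond this, mostly to complete a count, were chosen after their values were seen. List genes absent from the annotation were not analysed here.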

Additional observations from a re-analysis of the deposited data

How the results depend on the processing

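These 6 alternatives were run: a floor at the 70th or 30th percentile of all signals, the mean of all probe sets of a gene, no _x_at or _s_at probe sets (which leaves out Aif1 and Laptm5), quantile normalization, and log2(signal + 16) with no floor. No paired analysis was possible because each region has 1 array, and for the same reason no replicate could be left out. The count of members higher in the bulb than in both low cultures was 16 with the higher floor, against 28, and the count lower in the bulb than in the hippocampus 7, against 12; Ly86, Cd48, Ncf1, Cybb and Hcls1 lost their call, since the floor then lies at 360.4. The 5 members Fcgr2b, Cd52, Cd53, Msr1 and Plek were called lower in all settings. The median of the bulb minus the mean of the subventricular zone and ventral mesencephalon, 2.44, was 0.99 with the higher floor, 3.995 with the lower, 1.98 with the mean of probe sets and 3.91 with no floor. For the hippocampus it was 3.29, and 2.02, 4.87, 2.84 and 4.90 in the same order, because most low values lie under the floor. The bulb minus hippocampus median ran from -0.77 to -0.45. Of single members, 28 kept their direction in all settings that gave them a value, while Laptm5, Lyz1 and Gpnmb changed sign in at least 1. Itgam and Cd33 fell to 0 with the higher floor and Trem2 without _s_at probe sets, and Cd83 passed the floor only at its lower setting. Without a floor, or with the lower one, Cd33 was called lower in the bulb (-2.03 and -2.49), wider than Fcgr2b in those settings (-1.49 and -1.54); Itgam was called with the lower floor (-1.01). Cx3cr1, Coro1a and Ncf1 lost their call with the mean of all probe sets (-0.68, -0.95 and -0.99), and Ncf1 under quantile normalization (-0.9993). Over all genes, 418 were called higher and 694 lower in the bulb than in the hippocampus, against 250 and 323 with the higher floor and 602 and 1233 with the lower; no setting moved the median of all genes by more than 0.03.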

Other observations

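Genes that phagocytes raise when loaded with lipid or debris did not follow the members. Of 15 such genes 12 were above the floor, 11 of them in the subventricular zone culture and 11 in the ventral mesencephalon as well. The other 3, Itgax, Clec7a and Cst7, were not above it on any array. Apoe read 9548, 8743, 7713 and 4690 in the bulb, hippocampus, subventricular zone and ventral mesencephalon. With such signals where most members were at or below the floor, the list does not read phagocytes alone. Lgals3, a galectin, read 2397 in the bulb, 3889 in the hippocampus, 7676 in the subventricular zone culture and 2854 in the ventral mesencephalon. Tlr2, a receptor for bacterial lipoproteins, read 369.6, 949.4, 1271 and 408.3 in the same regions. Only Lpl, the lipoprotein lipase, was called higher in both the bulb and the hippocampus than in the other pair (1.64% of all genes were), with 603.8, 356.3, 54.9 and 23.2. The tetraspanin Cd9, at 1060.4 in the bulb and 3934 in the hippocampus, and the cholesterol hydroxylase Ch25h, at 665.9 and 1745, were called lower in the bulb, as was Tlr2. Of all genes 8.69% were called lower.

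Of the granulocyte and mast cell genes, S100a8 read 26.8 in the bulb and 259.2 in the hippocampus, while its partner S100a9 read 2.2 and 10.8. The receptor Kit read 273.0 in the bulb and 128.7 in the hippocampus, against 1.5 for the subventricular zone and 10.1 for the ventral mesencephalon. Mast cell proteases and Cpa3 were not above the floor on any array.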
